A study of Danio rerio with 12 samples.

Results

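The genes described here encode the amyloid precursor protein family and the proteases that cut it, measured as messenger RNA in cells sorted from the adult zebrafish brain. They were chosen by symbol: appa, appb, aplp1 and aplp2 for the precursor family, bace1 and bace2 for the beta-secretases, and psen2, ncstn and aph1b for subunits of gamma-secretase. Of the 9 symbols, 8 matched a gene among the 31953 genes of the count table, and ncstn is not analysed here. The table's names give appb as APP, and each of the 8 symbols belonged to 1 gene. The fish were Tg(her4.1:EGFP) animals aged 6 months, in which the her4.1 promoter drives GFP, so all 4 groups carry the reporter. Their brains were injected with AB42, the aggregation-prone amyloid-beta peptide, or with CPP, the control injection, and were taken 48 hours later. Dissociated cells were sorted by flow cytometry into a GFP-positive fraction and a GFP-negative fraction, and each combination of injection and fraction has 3 libraries, 12 in all. Whether replicates came from separate fish or pools is not stated, so every p-value measures only the spread between these libraries, which may be technical.

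The amyloid precursor protein is a membrane protein that is cut in steps. In mammals an alpha-secretase, mainly ADAM10, or the beta-secretase BACE1 releases the ectodomain, and gamma-secretase then cuts the remaining stump within the membrane; cleavage by BACE1 followed by gamma-secretase yields amyloid-beta. Gamma-secretase is a complex of a presenilin, which is the catalytic subunit, with nicastrin, APH1 and PEN-2, and it also cuts Notch, whose signalling maintains radial glia, the stem cells of the adult zebrafish brain. The zebrafish genes appa and appb are paralogs of one another, and both are orthologs of the single mammalian APP gene. APLP1 and APLP2 are related precursor proteins that lack the amyloid-beta sequence, and in mammals APLP1 is found mainly in neurons whereas APLP2 is expressed widely.

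Total counts ran from 9262838 to 15584769 per library, and 3 counts, taken as the floor of detection, corresponded to 0.192 to 0.324 CPM, the usual count scale relative to library size. Amplified reads carry no molecular identifiers, so such floors cover counting error only. The fractions were checked against marker genes. The summed level of 12 radial glia genes was 48596 to 52009 CPM in the GFP-positive libraries after CPP and 2237 to 2356 in the GFP-negative libraries after CPP, whereas 25 neuronal genes summed to 2645 to 2889 and 10550 to 11151. Both fractions also held oligodendrocyte and microglial RNA. After CPP, 10 oligodendrocyte genes summed to 5898 to 6311 CPM in GFP-positive and 14198 to 15478 in GFP-negative libraries. In the same order, 12 microglia and macrophage genes summed to 308 to 329 and 745 to 777 CPM. Of these 12, 8 were lower and 1 higher in GFP-positive libraries at an edgeR adjusted p under 0.05, and 3 did not pass. The gap in the sum was uneven: LCP1 alone averaged 108 CPM in GFP-positive and 357 in GFP-negative libraries, while havcr1 averaged 33.7 and 26.3. In bulk samples fewer cells of a type and less RNA per cell cannot be told apart.

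On the GRCz10 assembly appa (ENSDARG00000104279) lies on chromosome 1 from 622441 to 661520 on the minus strand and appb (ENSDARG00000055543) on chromosome 9 from 35217230 to 35260592 on the minus strand. The gene aplp1 (ENSDARG00000098368) lies on chromosome 15 from 37204506 to 37328812 on the plus strand, and aplp2 (ENSDARG00000054864) on chromosome 18 from 44371076 to 44533486 on the minus strand. Both beta-secretase genes are on chromosome 15, bace1 (ENSDARG00000101716) from 18560 to 22866 on the minus strand and bace2 (ENSDARG00000044781) from 6462514 to 6501957 on the plus strand. The presenilin gene psen2 (ENSDARG00000015540) lies on chromosome 1 from 50405176 to 50418606 on the minus strand, and aph1b (ENSDARG00000005612) on chromosome 7 from 28905774 to 28915786 on the plus strand. The counted exons of bace1 span 895 bases in 4 entries, against 1840 to 6090 bases for the other members. The exons of appb overlap those of one other gene, ENSDARG00000097336, on the opposite strand over 956 bases. That gene had 23 counts over all libraries against 46294 for appb. The strand setting of the counting is not given, so these counts cannot show whether reads in the shared bases were counted for appb.

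All 8 genes passed the filter on low counts, which kept 20237 genes. Levels are given as RPKM, the TMM-scaled CPM divided by the kilobases of counted exons, to set genes side by side. Orders between genes depend on this division, and whether it suits these libraries was not tested. The precursor genes were the most highly expressed members in every group. In GFP-negative cells after CPP, aplp1 averaged 126 ± 11.9 RPKM (SD, n = 3), appb 101 ± 4.79, appa 72.4 ± 4.87 and aplp2 45.3 ± 5.15, and the ranges of neighbours in that order did not overlap. These levels placed aplp1 at the 98.15th percentile of all genes tested and aplp2 at the 94.01st. In the same libraries aph1b averaged 7.67 ± 0.798 RPKM and psen2 7.07 ± 0.230, with overlapping ranges. The beta-secretase genes were the lowest, bace1 at 1.01 ± 0.0995 RPKM and bace2 at 0.585 ± 0.191.

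The order differed in GFP-positive cells. After CPP, appb led with 45.6 ± 1.56 RPKM, followed by aplp2 at 39.3 ± 2.88, appa at 35.6 ± 1.39 and aplp1 at 23.8 ± 2.10. The gamma-secretase gene aph1b came next at 14.9 ± 2.30 RPKM, then psen2 at 9.39 ± 1.20, bace2 at 2.56 ± 0.268 and bace1 at 1.25 ± 0.544, again without overlap between neighbours. After AB42 the order in GFP-positive cells was appb, appa, aplp2, aplp1, aph1b, psen2, bace2 and bace1, but the ranges of appa and aplp2 overlapped, as did those of aplp1 and aph1b. In GFP-negative cells after AB42 psen2 stood above aph1b in RPKM, without overlap, and bace2 and bace1 could not be separated. In CPM the means of psen2 and aph1b there were 25.09 and 25.12, so their order rests on the division by exon length.

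**Figure D1:**
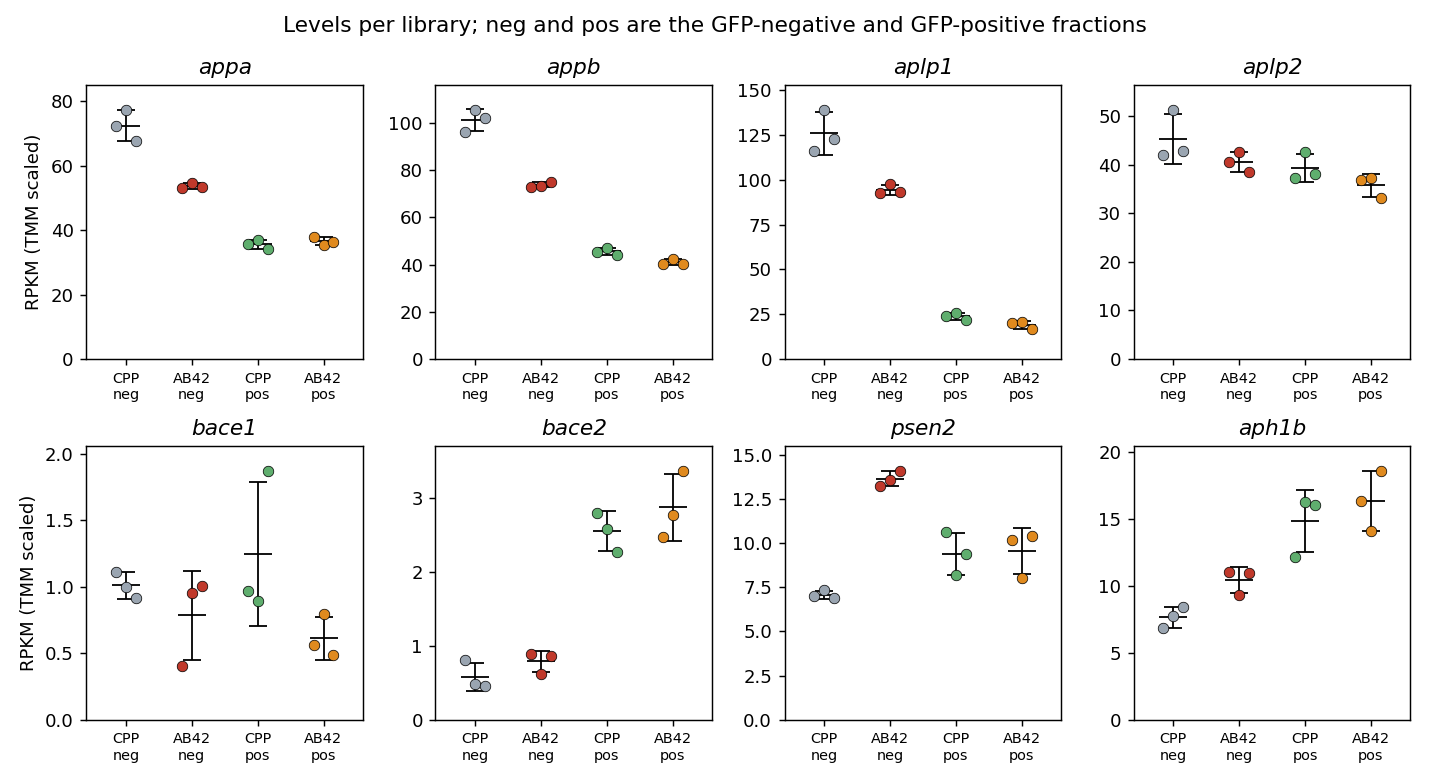
Level of each of the 8 genes in RPKM (TMM-scaled, linear axis from 0, own scale per gene) in each group; points are libraries, the long bar is the mean and the error bars are 1 SD, n = 3. The GFP-negative libraries after CPP are highest for appa, appb and aplp1, the GFP-negative libraries after AB42 are highest for psen2, and the GFP-positive libraries are highest for bace2 and aph1b.

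Summed over the 4 precursor genes, the family level was 345 ± 24.9 RPKM in GFP-negative cells after CPP, 263 ± 5.002 in GFP-negative cells after AB42, 144 ± 7.52 in GFP-positive cells after CPP and 132 ± 5.38 in GFP-positive cells after AB42. The make-up of that sum differed between fractions. Of the family RPKM, aplp1 made up 36.5% ± 0.880 in GFP-negative cells after CPP and 16.5% ± 0.684 in GFP-positive cells after CPP, whereas aplp2 made up 13.1% ± 0.539 and 27.2% ± 0.922. The share of appb lay between 28.1% and 31.6% in the 4 group means. The ratio of appa to appb in RPKM was 0.715 ± 0.0473 in GFP-negative cells after CPP and 0.728 ± 0.0164 after AB42, and 0.780 ± 0.00571 in GFP-positive cells after CPP and 0.893 ± 0.0557 after AB42. In each of the 12 libraries appa was therefore below appb per kilobase. This order rests on the exon lengths of 6090 and 4282 bases. In CPM, before division by length, the mean of appa was above that of appb in all 4 groups. The means were 441 and 434 in GFP-negative cells after CPP and 327 and 316 after AB42. In GFP-positive cells they were 217 and 195 after CPP and 223 and 176 after AB42. These shares and ratios are descriptions and were given no test.

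**Figure D2:**
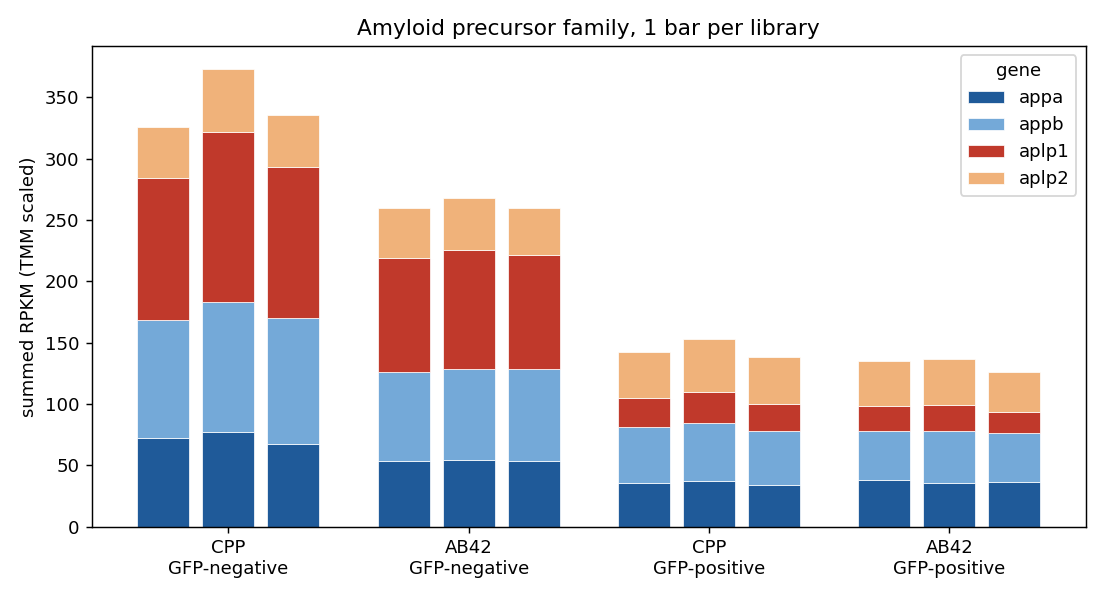
Summed RPKM of the precursor family (linear axis from 0) with 1 stacked bar per library, split into appa, appb, aplp1 and aplp2. The sum averages 345 RPKM in GFP-negative cells after CPP and 132 in GFP-positive cells after AB42, and the aplp1 segment is the tallest in GFP-negative libraries and the shortest in GFP-positive ones.

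GFP-positive and GFP-negative cells of the same injection were compared first. After CPP the precursor genes appa, appb, aplp1 and aplp2 were lower in GFP-positive cells, by 1.15-fold to 5.29-fold, and bace2, psen2 and aph1b were higher, by 1.33-fold to 4.52-fold. With edgeR's quasi-likelihood test at an adjusted p under 0.05, 4 of the 8 genes were lower and 3 higher. Over all genes tested 73% passed the same threshold, 37.1% higher and 35.9% lower, so a call is common in this comparison. The median log2 difference of the 8 genes was 0.04, against 0.01 over all genes.

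The 3 libraries of aplp1 read 116, 139 and 123 RPKM in GFP-negative cells after CPP and 23.9, 25.8 and 21.6 in GFP-positive cells. Every GFP-positive library was far below every GFP-negative one, with a log2 difference of -2.40 ± 0.07 (SE) and an edgeR adjusted p of 2.137e-26. After AB42 the difference was -2.30 ± 0.07 (edgeR adjusted p = 1.025e-25).

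For appb the libraries read 96.2, 106 and 102 RPKM in GFP-negative cells after CPP and 45.5, 47.2 and 44.1 in GFP-positive cells. Those of appa read 72.2, 77.4 and 67.6 RPKM and 35.7, 36.9 and 34.1. Neither gene's fractions overlapped. The log2 differences were -1.15 ± 0.06 for appb (edgeR adjusted p = 4.349e-20) and -1.02 ± 0.06 for appa (edgeR adjusted p = 3.201e-18). After AB42 they were smaller in size, -0.85 ± 0.06 for appb (edgeR adjusted p = 4.567e-16) and -0.55 ± 0.06 for appa (edgeR adjusted p = 7.199e-11).

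The family member aplp2, expressed widely in mammals, had the smallest difference between fractions of the 4 precursor genes. It read 41.9, 51.2 and 42.8 RPKM in GFP-negative cells after CPP and 37.3, 42.6 and 38.0 in GFP-positive cells, and the highest GFP-positive library lay inside the GFP-negative range. The log2 difference was -0.20 ± 0.07 after CPP (edgeR adjusted p = 0.008805) and -0.18 ± 0.07 after AB42 (edgeR adjusted p = 0.02077). With library totals these values were -0.69 and -0.43 and passed. With TMM both calls depended on single libraries. Without replicate 1 of the GFP-positive cells the CPP value was -0.16 (edgeR adjusted p = 0.06452). The AB42 value was -0.14 without replicate 2 of the GFP-negative cells (edgeR adjusted p = 0.109) and -0.12 without replicate 3 of the GFP-positive cells (edgeR adjusted p = 0.1389).

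Of the beta-secretase genes, bace2 was counted 20, 16 and 19 times in the GFP-negative libraries after CPP and 80, 73 and 55 times in the GFP-positive ones. In mammals BACE2 is the close homologue of BACE1 and is less abundant than it in the brain. The GFP-positive libraries were all above the GFP-negative ones, with a log2 difference of 2.18 ± 0.26 (edgeR adjusted p = 2.015e-09). After AB42 the counts were 28, 23 and 28 against 67, 79 and 70, a log2 difference of 1.86 ± 0.24 (edgeR adjusted p = 1.487e-08).

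The main beta-secretase gene of the mammalian brain, bace1, had few counts in every library. Its entry covers 895 counted bases, and whether it holds the whole gene was not tested, so its place in the order of levels is that of the entry. Its counts were 11, 13 and 15 in GFP-negative cells after CPP, 11, 10 and 18 in GFP-positive cells after CPP, 5, 14 and 13 in GFP-negative cells after AB42, and 6, 9 and 4 in GFP-positive cells after AB42. The fractions overlapped after either injection. The log2 difference between fractions was 0.29 ± 0.42 after CPP, with a 95% interval from -0.55 to 1.13, and -0.34 ± 0.49 after AB42, with an interval from -1.33 to 0.66. A difference was therefore not detectable with these counts, and these intervals still hold changes of over 1 log2 unit.

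The gamma-secretase subunit gene aph1b read 6.83, 7.76 and 8.42 RPKM in GFP-negative cells after CPP and 12.2, 16.3 and 16.1 in GFP-positive cells. The fractions did not overlap, and the log2 difference was 0.94 ± 0.12 (edgeR adjusted p = 9.204e-09). After AB42 it was 0.64 ± 0.12 (edgeR adjusted p = 6.568e-06). With library totals these values were 0.46 and 0.39 and passed.

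The gene psen2, which encodes a presenilin, changed direction between injections. After CPP it read 6.996, 7.33 and 6.89 RPKM in GFP-negative cells and 10.6, 8.21 and 9.36 in GFP-positive cells, a log2 difference of 0.41 ± 0.13 (edgeR adjusted p = 0.004492). After AB42 it read 13.2, 13.6 and 14.1 RPKM in GFP-negative cells and 10.2, 8.03 and 10.4 in GFP-positive cells, a log2 difference of -0.52 ± 0.12 (edgeR adjusted p = 0.0002304). The libraries of the fractions did not overlap after either injection. The CPP direction depended on scaling: with library totals in place of TMM it was -0.07 (edgeR adjusted p = 0.604), while the median of all genes in that comparison moved by -0.48. The AB42 direction was the same under both scalings.

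After AB42, 2 of the 8 genes were higher in GFP-positive cells and 5 were lower, with a median log2 difference of -0.43. Over all genes the median was -0.01 and 73.7% passed, 36% higher and 37.7% lower.

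**Figure D3:**
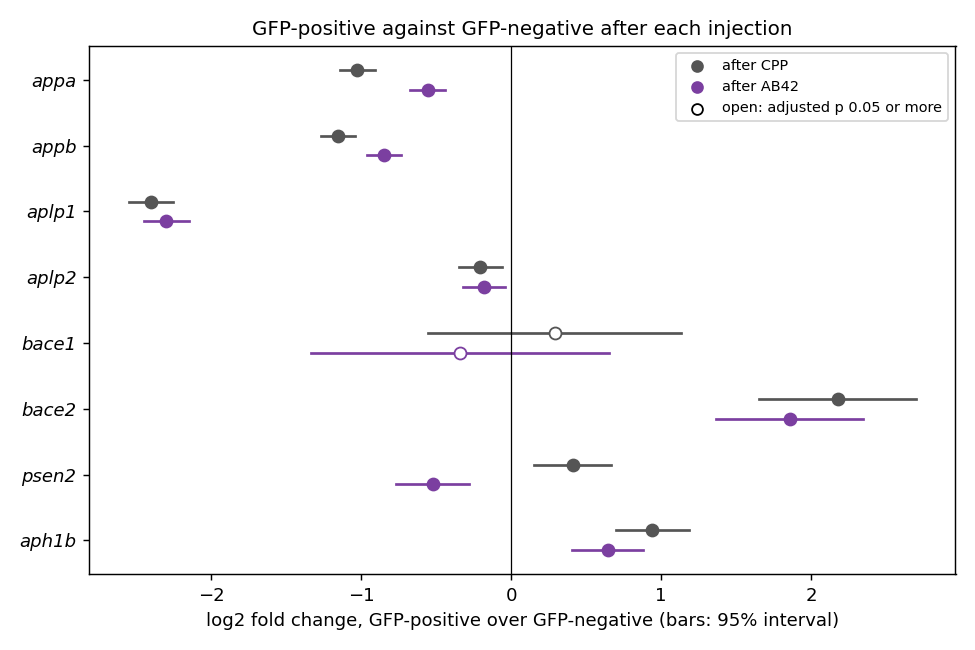
Log2 difference of GFP-positive over GFP-negative cells for each gene after CPP and after AB42; points are edgeR estimates, bars are 95% intervals and filled points passed an adjusted p of 0.05. The precursor genes lie below 0, down to -2.40 for aplp1, bace2 and aph1b lie above 0, and psen2 lies at 0.41 after CPP and -0.52 after AB42.

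The effect of AB42 was then compared with CPP within GFP-negative cells. The precursor genes appa, appb and aplp1 were 1.33-fold to 1.37-fold lower after AB42, psen2 was 1.93-fold higher and aph1b 1.35-fold higher. With edgeR's quasi-likelihood test, 3 of the 8 genes fell and 2 rose. Over all genes tested 38.2% passed, 20.9% higher and 17.3% lower. The median log2 change of the 8 genes was -0.25, against -0.01 over all genes.

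In the GFP-negative libraries appb read 96.2, 106 and 102 RPKM after CPP and 73.1, 73.5 and 75.0 after AB42, and appa read 72.2, 77.4 and 67.6 and then 53.1, 54.7 and 53.3. For both genes every AB42 library lay below every CPP library. The log2 changes were -0.46 ± 0.05 for appb (edgeR adjusted p = 1.102e-08) and -0.43 ± 0.06 for appa (edgeR adjusted p = 7.366e-08).

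The family member aplp1, found mainly in neurons in mammals, read 116, 139 and 123 RPKM after CPP and 92.7, 97.6 and 93.0 after AB42. Its groups did not overlap, and the log2 change was -0.42 ± 0.07 (edgeR adjusted p = 4.741e-06). For aplp2 the libraries read 41.9, 51.2 and 42.8 RPKM after CPP and 40.5, 42.5 and 38.5 after AB42. These overlapped, and the log2 value of -0.16 ± 0.07 did not pass the threshold (edgeR adjusted p = 0.06058); it passed under 8 of 13 alternatives.

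The presenilin gene psen2 had the largest change of the 8 genes in this fraction. From 6.996, 7.33 and 6.89 RPKM after CPP it stood at 13.2, 13.6 and 14.1 after AB42, a log2 change of 0.95 ± 0.12 with a 95% interval from 0.70 to 1.19 (edgeR adjusted p = 5.389e-08). Its level moved from the 65.16th to the 78.9th percentile of all genes. The APH1 subunit gene aph1b read 6.83, 7.76 and 8.42 RPKM after CPP and 11.1, 9.32 and 10.97 after AB42, a log2 change of 0.43 ± 0.12 (edgeR adjusted p = 0.003961). For both genes every AB42 library was above every CPP library.

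For the beta-secretase genes no change passed the threshold in GFP-negative cells. The bace2 counts of 20, 16 and 19 after CPP and 28, 23 and 28 after AB42 overlapped once scaled, with a log2 value of 0.47 ± 0.30 and an interval from -0.13 to 1.07 (edgeR adjusted p = 0.2146). For bace1 the value was -0.33 ± 0.43, with an interval from -1.20 to 0.54 (edgeR adjusted p = 0.5842).

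Cell type markers moved in the same libraries. Of 25 neuronal genes, 18 were lower and 1 higher after AB42 in GFP-negative cells, and their summed level was 10550 to 11151 CPM after CPP and 8308 to 8511 after AB42. All 12 microglia and macrophage genes were higher, and their sum was 745 to 777 CPM after CPP and 2148 to 2230 after AB42. Of 10 oligodendrocyte genes, 8 were higher, with sums of 14198 to 15478 and 18108 to 18772. None of these 3 lists had a gene at 0 in a group. The part of these marker shifts in the changes of appa, appb, aplp1, psen2 and aph1b was not tested.

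In GFP-positive cells AB42 left most of the 8 genes without a call. The gene aplp1 fell and no gene rose, 1 of 8 by edgeR's quasi-likelihood test. Over all genes tested 18.7% passed, 6.21% higher and 12.5% lower, so the count for the 8 genes is near the background. The median log2 value was -0.06, equal to the -0.06 over all genes.

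In the GFP-positive libraries aplp1 read 23.9, 25.8 and 21.6 RPKM after CPP and 19.8, 20.9 and 16.6 after AB42. Every AB42 library was below every CPP library, and the log2 change was -0.31 ± 0.07, a 1.24-fold reduction (edgeR adjusted p = 0.001867). With library totals in place of TMM it was -0.22 (edgeR adjusted p = 0.05953). In the same libraries 19 of the 25 neuronal genes were lower and 1 higher, and their sum was 2645 to 2889 CPM after CPP and 1975 to 2167 after AB42. Of 11 radial glia genes tested, 6 were lower and 1 higher, and 5 of 10 oligodendrocyte genes were lower. The part of these shifts in the aplp1 value was not tested.

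For appb the GFP-positive libraries read 45.5, 47.2 and 44.1 RPKM after CPP and 40.2, 42.6 and 40.3 after AB42. They did not overlap, yet the log2 value of -0.15 ± 0.06 missed the threshold (edgeR adjusted p = 0.05606). It passed under 3 of 13 alternatives. For appa the values of 35.7, 36.9 and 34.1 RPKM after CPP and 37.9, 35.5 and 36.3 after AB42 overlapped, with a log2 value of 0.04 ± 0.06 and an interval from -0.08 to 0.16.

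The value of aplp2 was -0.14 ± 0.07, with no overlap between its libraries (edgeR adjusted p = 0.1818), and it passed under 1 of 13 alternatives. The gamma-secretase genes also stayed under the threshold: psen2 had a log2 value of 0.01 ± 0.13, with an interval from -0.24 to 0.27, and aph1b 0.14 ± 0.11, with an interval from -0.10 to 0.37. The interval of psen2 in GFP-positive cells thus ends below the 0.70 at which its GFP-negative interval begins.

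The beta-secretase values in GFP-positive cells were 0.16 ± 0.21 for bace2, with an interval from -0.28 to 0.59, and -0.96 ± 0.47 for bace1, with an interval from -1.92 to 0.00. The bace1 libraries did not overlap, but each held at most 18 counts and the call was missed (edgeR adjusted p = 0.1663).

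**Figure D4:**
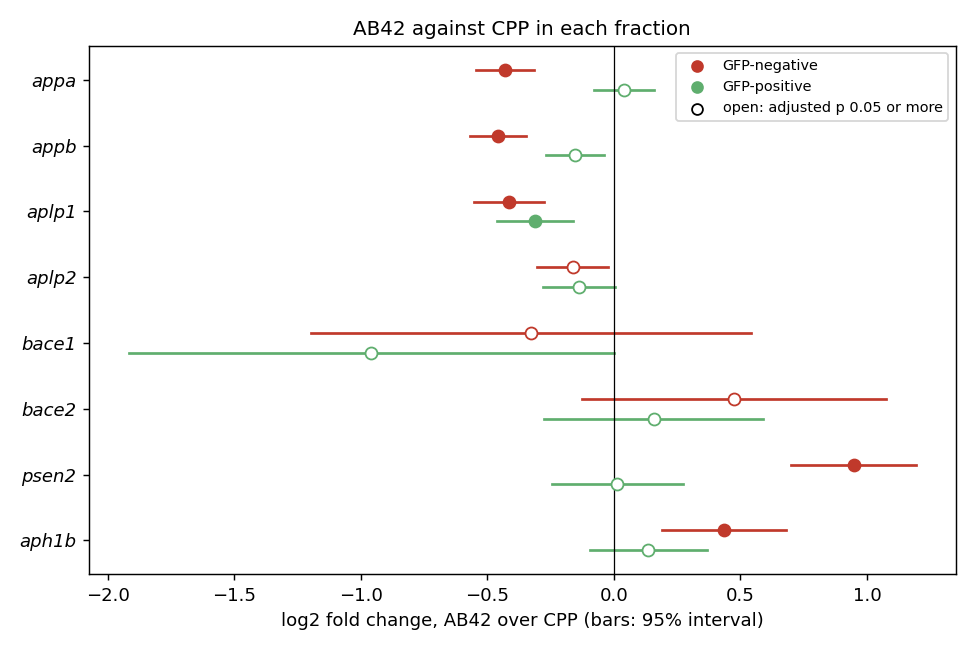
Log2 fold change of AB42 over CPP for each gene in GFP-negative and GFP-positive cells; points are edgeR estimates, bars are 95% intervals and filled points passed an adjusted p of 0.05. In GFP-negative cells appa, appb and aplp1 lie between -0.46 and -0.42 and psen2 at 0.95, while in GFP-positive cells aplp1 at -0.31 is the filled point.

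Whether AB42 acted differently in the fractions was tested as the difference of its effects, GFP-positive minus GFP-negative. It passed for 3 of the 8 genes, 2 of them higher and 1 lower, while over all genes 21.9% passed, 5.46% higher and 16.5% lower. The difference was 0.47 ± 0.08 log2 units for appa (edgeR adjusted p = 2.399e-05) and 0.31 ± 0.08 for appb (edgeR adjusted p = 0.003635). The AB42 effect on appa was -0.43 in GFP-negative and 0.04 in GFP-positive cells, and that on appb -0.46 and -0.15. For psen2 it was -0.93 ± 0.18, with an interval from -1.29 to -0.58 (edgeR adjusted p = 9.853e-05). These 3 calls held in 18 of 18 alternatives, and the appb value was 0.53 with library totals. All 12 microglial genes were also lower in this difference, with a median of -1.85, 11 of 25 neuronal genes were lower and 1 higher, and 7 of 10 oligodendrocyte genes were lower; their part in the differences of the 3 genes was not tested.

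For aplp1 the difference was 0.10 ± 0.10, with an interval from -0.10 to 0.31, so its reduction was not shown to differ between fractions. With library totals it was 0.33 (edgeR adjusted p = 0.02339). For aph1b, which rose in GFP-negative cells, the difference was -0.30 ± 0.17, with an interval from -0.64 to 0.04 (edgeR adjusted p = 0.2149). The intervals ran from -0.18 to 0.22 for aplp2, from -1.93 to 0.67 for bace1 and from -1.06 to 0.42 for bace2.

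Around these genes, a list of 60 symbols for the rest of amyloid precursor processing matched 51 genes, of which 49 were tested. In GFP-negative cells 15 of the 49 were higher and 21 lower after AB42, and the median log2 value was -0.16, against 20.9% of all genes higher, 17.3% lower and an overall median of -0.01. In GFP-positive cells 3 were higher and 12 lower, and the median was -0.05, against 6.21% of all genes higher, 12.5% lower and an overall median of -0.06. With library totals these splits were 10 and 25, and 7 and 9. PSENEN, which encodes PEN-2, had a log2 value of -0.20 ± 0.11 after AB42 in GFP-negative cells (edgeR adjusted p = 0.1364) and fell in GFP-positive cells by 0.35 ± 0.10 on the log2 scale (edgeR adjusted p = 0.01443). The PSENEN call in GFP-positive cells was lost without CPP replicate 3 (edgeR adjusted p = 0.1409), AB42 replicate 1 (0.07559) or AB42 replicate 2 (0.06042) and with library totals (0.08181), and with library totals it passed in GFP-negative cells at -0.34 (0.009996). Between fractions after CPP, PSENEN was higher on the GFP-positive side by 0.77 (edgeR adjusted p = 3.725e-08), or by 0.28 with library totals.

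Of 5 alpha-secretase genes, 3 were higher after AB42 in GFP-negative cells and none lower, beside 20.9% and 17.3% of all genes. Of the 3, ADAM17 (ENSDARG00000043213) was lost with library totals (edgeR adjusted p = 0.3599). The other ADAM17 gene (ENSDARG00000093093) averaged 1.72 RPKM after CPP and 2.13 after AB42. The gene adam10a, a zebrafish counterpart of the main alpha-secretase ADAM10, averaged 21.9 RPKM after CPP and 32.5 after AB42, a log2 change of 0.57 ± 0.07 (edgeR adjusted p = 8.417e-09). The other paralog, adam10b, was far lower and averaged 0.741 RPKM after CPP and 0.611 after AB42. In GFP-positive cells adam10a rose by 0.21 (edgeR adjusted p = 0.02289); that call was lost without CPP replicate 1 (0.1306), AB42 replicate 1 (0.05065) or AB42 replicate 2 (0.1009). The calls of ECE2 at 0.46 and rtn3 at 0.21 in GFP-positive cells were also lost without some single libraries.

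Of 12 cytoplasmic adaptor genes, whose products bind the intracellular tail of the precursor, 9 were lower and none higher in GFP-negative cells, where 17.3% of all genes were lower. In GFP-positive cells 4 were lower and none higher, where 12.5% of all genes were lower. Of the 25 neuronal genes, 18 were lower in the same GFP-negative libraries and 19 in the GFP-positive ones, with 1 higher in each. In the GFP-positive libraries 6 of 11 radial glia genes tested were lower and 1 higher, and 5 of 10 oligodendrocyte genes were lower. The part of these marker shifts in the adaptor values was not tested. The X11-type adaptor gene apba2a fell by 0.89 ± 0.13 on the log2 scale in GFP-negative cells (edgeR adjusted p = 1.147e-06), and APBB3, of the Fe65 family, fell by 0.64 ± 0.17 in GFP-positive cells (edgeR adjusted p = 0.005011).

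Of 24 trafficking and cleavage modulators, 8 were higher and 12 lower in GFP-negative cells, beside 20.9% and 17.3% of all genes. SORT1 (ENSDARG00000029402), a sorting receptor, averaged 13.2 RPKM after CPP and 6.68 after AB42, a log2 change of -0.98 (edgeR adjusted p = 2.929e-12). The other SORT1 gene (ENSDARG00000056252) averaged 23.3 RPKM after CPP and 20.7 after AB42. Paralogs that share a symbol went opposite ways there: BIN1 (ENSDARG00000058820) rose by 1.38 (edgeR adjusted p = 3.356e-07) and BIN1 (ENSDARG00000042114) fell by 0.64 (edgeR adjusted p = 7.382e-07). ITM2B (ENSDARG00000041505), a membrane protein that inhibits precursor cleavage in mammals, rose by 0.99 (edgeR adjusted p = 6.415e-15), whereas its relative ITM2C (ENSDARG00000043448) fell by 0.70 (edgeR adjusted p = 1.674e-10). The other ITM2B gene (ENSDARG00000007098) averaged 317 RPKM after CPP and 381 after AB42. GGA3 (ENSDARG00000098871), a sorting adaptor, fell by 0.78 (edgeR adjusted p = 0.006126), a call lost without AB42 replicate 2 (0.05276). The other GGA3 gene (ENSDARG00000103667) averaged 4.72 RPKM after CPP and 5.12 after AB42.

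In GFP-positive cells 1 of the 24 modulators was higher and 7 were lower, beside 6.21% and 12.5% of all genes. In the same libraries 19 of 25 neuronal genes were lower and 1 higher, and 5 of 10 oligodendrocyte genes were lower. Of 11 radial glia genes tested, 6 were lower and 1 higher. The part of these marker shifts was not tested. ITM2C fell there too, by 0.77 for ENSDARG00000043448 (edgeR adjusted p = 1.593e-08) and by 0.51 for ENSDARG00000039650 (edgeR adjusted p = 9.609e-09). PICALM (ENSDARG00000012866), an endocytic adaptor, fell by 0.54 (edgeR adjusted p = 7.813e-05). The other PICALM gene (ENSDARG00000014137) averaged 9.26 RPKM after CPP and 9.16 after AB42. BIN1 (ENSDARG00000042114) fell by 0.55 (edgeR adjusted p = 0.006944), a call lost without CPP replicate 2 (0.05638).

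Of the 8 genes listed for degradation and binding of amyloid-beta, 6 were tested. After AB42, 4 of them were higher and none lower in GFP-negative cells, beside 20.9% and 17.3% of all genes. The IDE call was lost with library totals (edgeR adjusted p = 0.1023). ECE1, an endothelin-converting enzyme that can degrade amyloid-beta, averaged 1.16 ± 0.178 RPKM after CPP and 4.69 ± 0.429 after AB42, a log2 change of 2.01 ± 0.19 (edgeR adjusted p = 5.176e-11). The lysosomal protease genes CTSD and CTSB rose by 1.21 (edgeR adjusted p = 3.899e-20) and 1.12 (edgeR adjusted p = 2.977e-16). All 12 microglial genes were higher in the same libraries. Also higher were 8 of 10 oligodendrocyte genes, 5 of 10 endothelium and mural genes tested and 3 of 7 neutrophil and lymphocyte genes. No gene of these lists was lower, whereas 18 of 25 neuronal genes were. Of 4 erythrocyte genes tested 3 were higher and 1 lower, and of 11 radial glia genes tested 3 were higher and 2 lower. None of the 5 ependyma and motile cilia genes tested passed. The part of these marker shifts in the changes of ECE1, CTSD and CTSB was not tested.

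**Figure D5:**
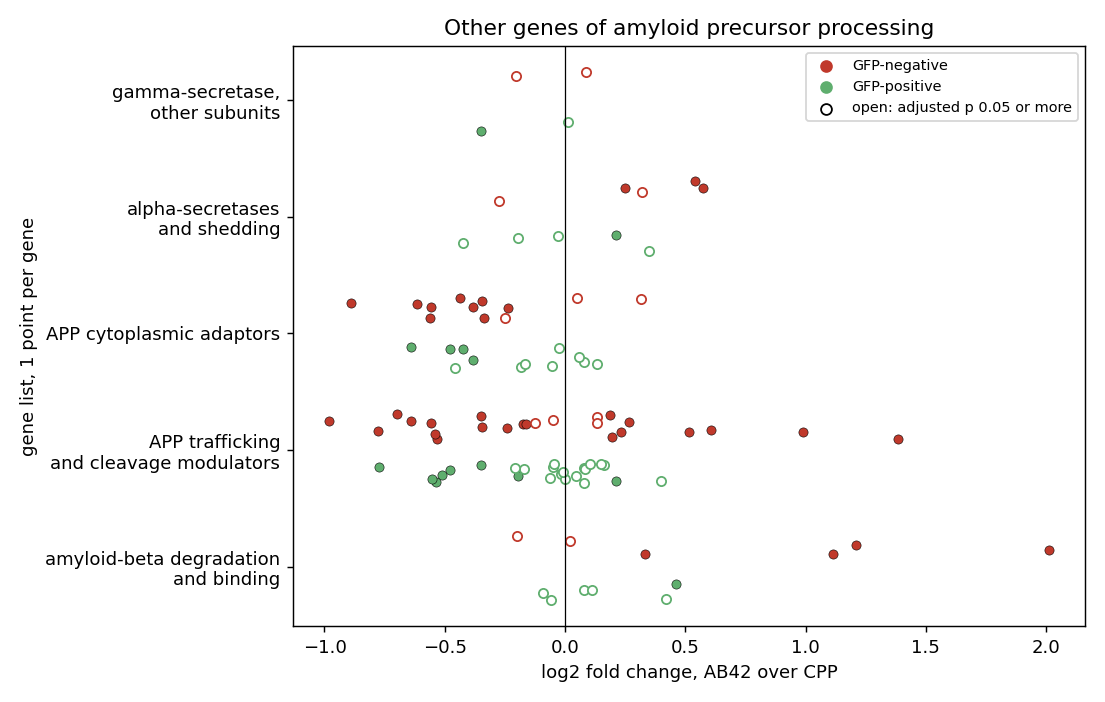
Log2 fold change of AB42 over CPP for the 49 other genes of amyloid precursor processing, grouped by list, in GFP-negative and GFP-positive cells; each point is 1 gene and filled points passed an adjusted p of 0.05. In GFP-negative cells 9 of 12 adaptor genes lie filled below 0 and 4 of 6 degradation genes filled above 0. Of all genes tested there, 17.3% were lower and 20.9% higher.

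Between fractions after CPP, 22 of the 49 genes passed the threshold as higher in GFP-positive cells and 20 as lower, and 7 did not pass. After AB42, 17 passed as higher and 19 as lower, and 13 did not pass. Over all genes 73% passed after CPP, 37.1% higher and 35.9% lower, and 73.7% after AB42, 36% higher and 37.7% lower. With library totals the counts of the 49 genes were 10 and 29, and 10 and 27. After CPP the largest calls were ITM2B (ENSDARG00000041505) at 1.64 and APBA3 at 1.60 on the higher side, and a BIN1 paralog at -2.98 and ITM2C (ENSDARG00000043448) at -2.77 on the lower side. In the difference of AB42 effects 6 of the 49 genes were higher and 10 lower, beside 5.46% and 16.5% of all genes.

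Across the 12 libraries the genes with the profile most like each member were found by Pearson correlation of log2 levels among genes with a symbol and a mean of at least 5 CPM. The 12 points share their 4 groups, so these values are descriptions. The closest were CAMK2B for aplp1 (r = 0.998), NDRG4 for appb (r = 0.996), atp2b4 for appa (r = 0.995), CMBL for bace2 (r = 0.992), WDR36 for aph1b (r = 0.980) and CDK2AP2 for psen2 (r = 0.962). The likeness was weaker for aplp2, with GIGYF1 at r = 0.931, and weakest for bace1, with PCMT1 at r = 0.846. The second genes were ARHGAP21 for aplp1, dlg1a for appb, ATP8A2 for appa, PSMB6 for bace2, DHRS3 for aph1b, EIF3CL for psen2, GIT1 for aplp2 and MTFP1 for bace1, with r from 0.818 for MTFP1 to 0.998 for ARHGAP21.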

How the data were processed

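The deposited table holds whole-number read counts per Ensembl gene and a summed exon length; the authors made it with BWA 0.7.12 and featureCounts on GRCz10 (danRer10), per the submitters' processing notes. The labels and notes give no strand setting, annotation release or filters. Libraries came from poly-dT primed, template-switched and PCR-amplified cDNA read as 75 single-end bases, per the labels' protocols. Symbols come from a supplied name table. The 8 genes, the pathway list and the marker lists were chosen with earlier results of these data known.

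The counts were fitted with edgeR 4.0.16 in R 4.3.3 (filterByExpr, TMM, quasi-likelihood, 4 group means, 12 libraries, 8 residual degrees of freedom) and p-values were adjusted over all 20237 genes by Benjamini-Hochberg within each of 5 comparisons. Comparisons that share libraries are not independent. The standard error is the log2 fold change over the square root of F, and edgeR's prior count was 0.125. Levels are RPKM from TMM-scaled counts and the deposited length. All listed genes of the set were named, and of the pathway list up to 5 per comparison and direction by fold change among those past the threshold, from which examples are printed; genes alike in profile used a pseudocount of 0.5 CPM. Genes outside these rules, such as PSENEN and adam10a in GFP-negative cells, were named after their values were seen. The fitting script was tested on simulated data. Alternatives were RLE factors, library totals, DESeq2 1.42.0, other count filters, the libraries compared alone, a replicate block and each library left out. No library pair of a group agreed within sampling noise (chi-square per degree of freedom 2.10 to 4.84). 1 gene of the pathway list is not reported here by name.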

Additional observations from a re-analysis of the deposited data

Results flagged for a closer look

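Listed here are genes for which the AB42 effect differed between the fractions by the test of the difference itself. Values are edgeR estimates of GFP-positive minus GFP-negative in log2 units. All of the 8 genes past the threshold are given. Of the other pathway genes, 6 were higher and 10 lower, and the 5 largest per direction are given. Over all genes 21.9% passed, 5.46% higher and 16.5% lower. Groups of 3 libraries were not examined for single extreme values. Among the amyloid precursor and secretase genes these were appa at 0.47, appb at 0.31 and psen2 at -0.93. For psen2 the AB42 effect was 0.95 in GFP-negative cells and 0.01 in GFP-positive cells. Its GFP-positive level was above the GFP-negative one after CPP and below it after AB42. With library totals the difference after CPP was -0.07 and did not pass (edgeR adjusted p = 0.604), while that after AB42 kept its direction.

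Among the other genes of the pathway the difference was higher for SORT1 (ENSDARG00000029402) at 1.06, apbb1 at 0.69, ECE2 at 0.66, MAPK8IP1 (ENSDARG00000102229) at 0.63 and DAB1 at 0.44. The DAB1 call was lost without replicate 2 of the GFP-negative AB42 cells (edgeR adjusted p = 0.05292) or replicate 1 of the GFP-positive AB42 cells (edgeR adjusted p = 0.06284). It was lower for ECE1 at -1.60, BIN1 (ENSDARG00000058820) at -1.59, ITM2B (ENSDARG00000041505) at -1.34, CTSB at -1.21 and CTSD at -1.10. All 12 microglia and macrophage genes were lower in the same difference, with a median of -1.85, as were 7 of 10 oligodendrocyte genes and 11 of 25 neuronal genes, and their part in these values was not tested.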

How the results depend on the processing

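Of 558 fold changes of the 8 genes under the alternatives, 533 kept their direction and side of the threshold, 13 passed it newly, 4 lost it, 7 values without a call changed sign and 1 called value reversed. In GFP-negative cells the AB42 calls of appa, appb, aplp1, psen2 and aph1b held in 13 of 13 alternatives. The AB42 count in GFP-positive cells, 1 of 8, was 0 with library totals, 2 with no count filter, 3 with a replicate block and 1 to 2 when libraries were left out in turn; appb was the second call without CPP GFP-positive replicate 3 (edgeR adjusted p = 0.04909). The psen2 difference between fractions after CPP became -0.073 with library totals, which moved the median of all genes by -0.48 there and, in the difference of AB42 effects, by 0.23. The pathway list then had 25 calls in that difference instead of 16, and all genes had 5357 instead of 4439. Library totals also moved the share of higher genes among all calls from 33.2% to 54.4% for AB42 in GFP-positive cells, 54.8% to 36.9% in GFP-negative cells, 50.9% to 30.3% and 48.9% to 37.0% between fractions after CPP and AB42, and 24.9% to 60.6% for the difference; the 6 libraries alone gave 47.1% in GFP-positive cells. Leaving out some GFP-negative libraries, which lie outside that comparison, also moved the GFP-positive split from 1256 higher and 2523 lower. Without CPP replicate 1 of the GFP-negative cells it was 1630 and 2064, and without AB42 replicate 3 it was 1640 and 2057. Without CPP replicate 3 it was 1261 and 2507. The cause of these shifts was not tested. Deviations of same-numbered replicates correlated with r from -0.05 to 0.25, over 0.1 in 9 of 18 pairs. For pairs of different number r ran from -0.24 to 0.16, so the ranges overlapped. Pairs within replicate 1 ran from -0.053 to 0.079 and pairs within replicate 2 from 0.061 to 0.151. Pairs within replicate 3 ran from 0.155 to 0.252, and replicate 3 against other numbers from -0.24 to 0.073. Of the 12 libraries, 8 correlated best with one of their own number. The numbers were not treated as pairs, and whether they mark a shared source is unresolved. With the replicate block 4356, 8236, 14954, 15123 and 5105 genes passed in the 5 comparisons, against 3779, 7733, 14782, 14908 and 4439 without it. Few counts limit bace1, which fell under the count filter when the 6 GFP-positive libraries or the 6 AB42 libraries were fitted alone.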
